A study of Mus musculus with 9 samples.

Results

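The genes described are those that carry the adrenergic signal for fat breakdown and the enzymes that carry it out. They were chosen by name from the gene count table: the receptor Adrb3, the cyclase Adcy5, the phosphodiesterase Pde3b, the kinase subunit Prkar2b, the lipases Pnpla2, Lipe and Mgll, and the lipase cofactors Abhd5 and G0s2. All 9 named genes were found among the 3958 genes listed. The RNA came from adipose tissue collected at day 21 from male mice of the strain C57BL/6J, with 3 libraries in each of 3 groups. The EA group (libraries 5, 7 and 8, titled APX) is labelled with the treatment EA, the series' abbreviation for electroacupuncture, MPX (2, 5 and 7) and CPX (4, 6 and 8) are code names, and the series names 3 arms: normal diet, high-fat diet, and high-fat diet with electroacupuncture. The labels tie neither MPX nor CPX to a diet and do not state the fat depot, the age of the mice, the stimulation used or how many mice each library came from, so p-values measure only the spread between these libraries.

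In fat cells, noradrenaline acts on beta-adrenergic receptors, which switch on adenylyl cyclase through a stimulatory G protein. The cAMP that is made binds the regulatory subunits of protein kinase A and frees its catalytic subunits, which phosphorylate hormone-sensitive lipase and the droplet coat protein perilipin. Stored triglyceride is then cleaved in order by adipose triglyceride lipase (the product of Pnpla2), hormone-sensitive lipase (Lipe) and monoglyceride lipase (Mgll), while insulin opposes the signal in part through the cAMP-degrading enzyme phosphodiesterase 3B (Pde3b).

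The letters upstream of 4 of these genes, picked by their levels, are shown as a description, and no result rests on them. Adcy5 was the gene with 3 separate groups, and the levels of Mgll, Lipe and Prkar2b ran most closely together when library CPX 6 was set aside. RefSeq (GRCm38.p6) promoter windows were found for 7 of the 9 genes, all but Adrb3 and Pde3b. Each line gives the 250 bases before the annotated start, 5′ to 3′ on the gene's own strand, and capitals mark the E-box CACGTG, a palindrome bound by several basic helix-loop-helix factors.
Adcy5 (chr16:35154614-35154863, plus strand): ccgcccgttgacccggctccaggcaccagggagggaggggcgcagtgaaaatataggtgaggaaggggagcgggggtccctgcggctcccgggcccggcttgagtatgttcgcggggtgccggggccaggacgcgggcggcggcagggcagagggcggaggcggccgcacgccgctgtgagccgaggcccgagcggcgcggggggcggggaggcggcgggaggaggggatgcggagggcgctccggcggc
Mgll (chr6:88724162-88724411, plus strand): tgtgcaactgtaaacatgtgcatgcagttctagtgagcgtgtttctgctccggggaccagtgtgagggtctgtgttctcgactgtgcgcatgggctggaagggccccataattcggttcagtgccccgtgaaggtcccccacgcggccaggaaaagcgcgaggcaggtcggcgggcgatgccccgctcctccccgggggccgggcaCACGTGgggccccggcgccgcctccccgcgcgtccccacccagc
Lipe (chr7:25395988-25396237, minus strand): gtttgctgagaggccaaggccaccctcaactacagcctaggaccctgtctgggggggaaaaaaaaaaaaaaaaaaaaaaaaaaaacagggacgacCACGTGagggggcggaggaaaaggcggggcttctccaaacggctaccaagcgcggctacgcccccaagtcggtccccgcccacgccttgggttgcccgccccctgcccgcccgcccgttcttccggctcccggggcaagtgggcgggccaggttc
Prkar2b (chr12:32061278-32061527, minus strand): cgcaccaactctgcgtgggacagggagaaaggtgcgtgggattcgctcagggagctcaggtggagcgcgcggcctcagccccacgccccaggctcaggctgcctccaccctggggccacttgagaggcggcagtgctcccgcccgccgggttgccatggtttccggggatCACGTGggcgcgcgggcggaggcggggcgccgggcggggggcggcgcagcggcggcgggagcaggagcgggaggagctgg
The E-box lay 44 bases before the start of Mgll, 155 bases before that of Lipe and 80 bases before that of Prkar2b. It occurred in 3 of the 7 windows, against 6.02% of the 32851 windows of the same length in the RefSeq table. Mgll, Lipe and Prkar2b each have 2 annotated starts, of which 1 is shown, and the Lipe window lies inside the longer gene model. The full cAMP response element TGACGTCA, to which the factor CREB binds, was in 0 of the 7 windows and in 1.55% of all windows. Its shorter form TGACG, searched on both strands, was in 2 of the 7 windows (Abhd5 and G0s2) and in 17.8% of all windows, and the CCAAT box, also searched on both strands, was in 0 of 7 and in 33.8%. A TGACG site can be part of a full element. The motifs were chosen after the sequences had been seen, and a match describes letters only. The shares of all windows were not matched for base content, so setting them beside the 7 windows tests nothing.

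Levels are CPM, counts per 1000000 counts of the listed genes, after TMM scaling. The listed counts summed to between 12115183 and 14208853 per library; these are sums over the more abundant genes and not library depths. All 18 adipocyte marker genes looked for were listed, among them Adipoq, whereas 0 of 8 retina markers were, which matters because the labels describe the RNA as extracted out of retinas. Of the brown fat, muscle and epithelium markers none were among the listed genes, and those cells were not analysed here. CPX 6 stood apart: its 18 adipocyte markers summed to 13969.9 CPM and its 7 listed B cell markers to 3177 CPM. The adipocyte sum was 46331 to 75616 CPM in EA, 71343 to 79943 CPM in MPX, and 143487 and 78359 CPM in CPX 4 and CPX 8. The B cell sum was 551 to 1687 CPM in EA, 4.31 to 18.3 CPM in MPX, and 10.4 and 24.9 CPM in CPX 4 and CPX 8, so that B cell transcripts separated EA from MPX without overlap. CPX 4 also had 149024 CPM of 9 mitochondrially encoded transcripts, against 29388 to 57795 CPM in the other libraries. In tissue RNA, fewer cells of a type and less RNA per cell cannot be told apart.

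Per kilobase of gene model and averaged over the 9 libraries, Pnpla2 was the most abundant of the set at 979.6 CPM per kb. G0s2 followed at 393, Lipe at 307, Mgll at 285, Prkar2b at 261, Adrb3 at 116, Pde3b at 60.7, Adcy5 at 33.4 and Abhd5 at 27.8 CPM per kb. Pnpla2 stood above G0s2 in 9 of 9 libraries and Pde3b above Adcy5 in 9 of 9. Several neighbours in that order did not keep it from library to library: Mgll exceeded Prkar2b in 4 of 9, Adcy5 exceeded Abhd5 in 5 of 9, and G0s2 exceeded Lipe in 6 of 9. Lipe exceeded Mgll in 6 of 9 libraries, and the 3 exceptions were the MPX libraries.

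**Figure D1:**
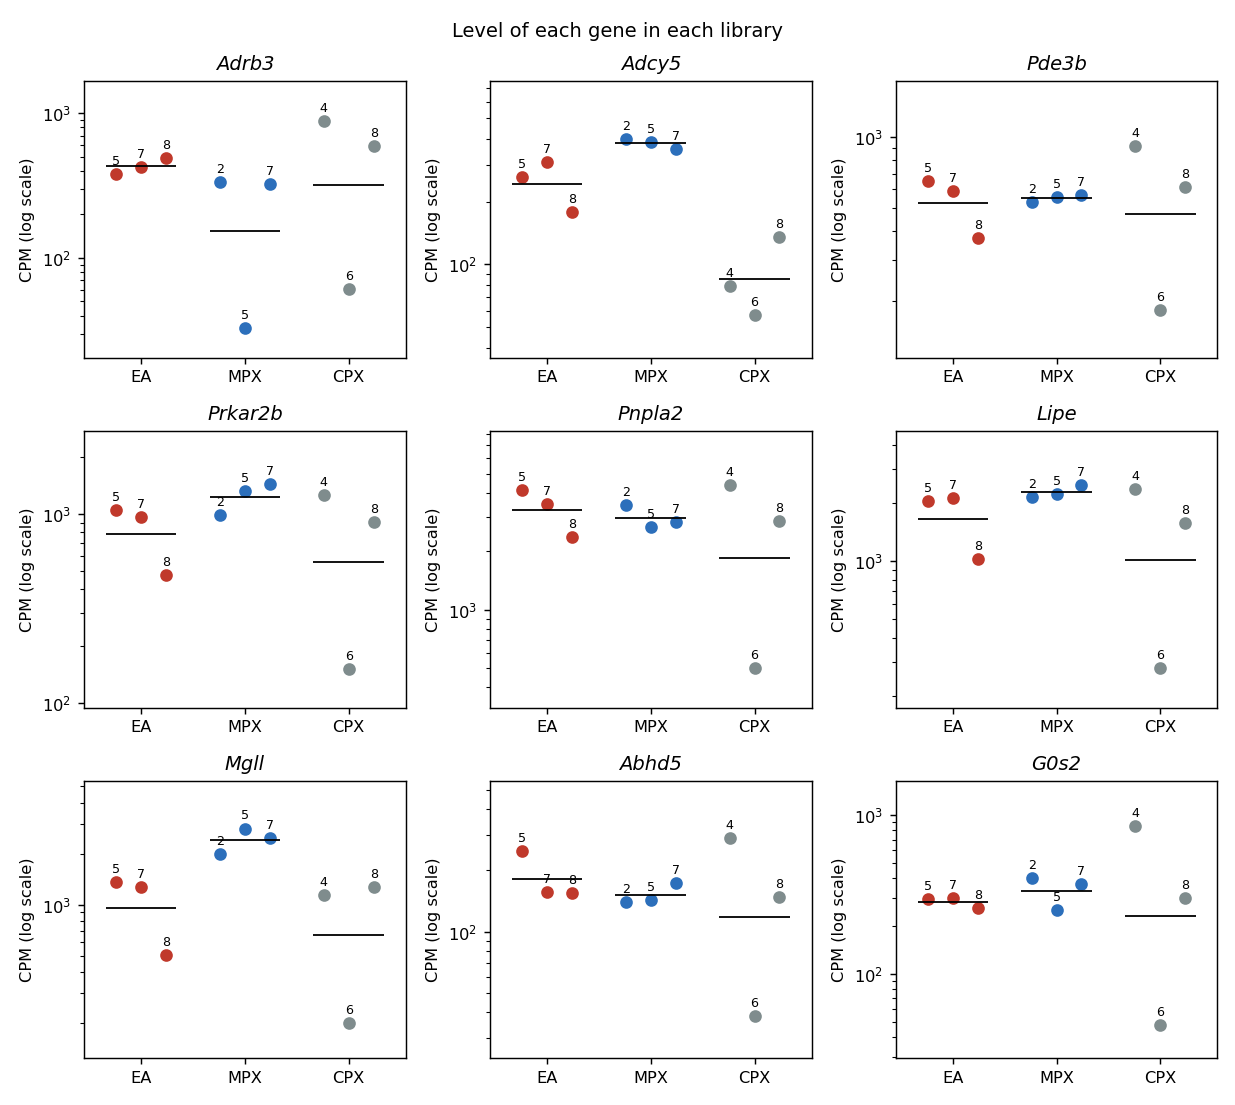
Level of each of the 9 genes in each library, in CPM on a log axis; points are libraries with their numbers, and bars are group means of the log values (n = 3 each). Adcy5 lies between 357 and 397 CPM in MPX, above all EA and all CPX libraries, and CPX 6 is the lowest CPX library for every gene.

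In the comparison of EA with MPX, no member passed the test: 0 of 9 had an adjusted p under 0.05 in edgeR's quasi-likelihood fit, against 0% of all 3958 genes. DESeq2 also called 0 of the 9 (1.24% of all genes it tested), and 0 of 9 had an unadjusted edgeR p under that threshold (5.1% of all genes). Without CPX 6 the edgeR fit called 23 of the 3958 genes (0.581%) and 0 of the 9. All 3 groups share 1 estimate of spread in these fits. With only EA and MPX fitted, edgeR called 84 genes and 0 of the 9. There Adcy5 and Mgll, both lower in EA, had an unadjusted edgeR p under 0.05, as did 642 higher and 629 lower of all genes. The EA libraries all lay above the MPX libraries for 1 member, Adrb3 (21.5% of all genes did so), and all below them for 3, Adcy5, Lipe and Mgll (19% of all genes). The median log2 difference of the 9 genes was -0.25, and that of all genes was 0.01.

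In EA against CPX, edgeR called 0 of the 9 genes (0% of all genes), whereas DESeq2 called 1, Adcy5, among the 5 genes it called (0.127% of those tested). Adcy5 was also the 1 member with an unadjusted edgeR p under 0.05 (2.96% of all genes), and the 1 member for which every EA library lay above every CPX library (2.1% of all genes). None of the 9 had every EA library below every CPX library (5.08% of all genes). Of the 9 log2 differences 6 were positive, with a median of 0.24 against -0.09 for all genes. Leaving out CPX 6 left 1 positive and a median of -0.24, against -0.04 for all genes.

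In MPX against CPX, edgeR called 0 of the 9 genes (0% of all genes), and DESeq2 called 1, again Adcy5 (5.1% of the genes it tested). An unadjusted edgeR p under 0.05 was found for Adcy5 and for no other member (13.2% of all genes). Every MPX library lay above every CPX library for 2 members, Adcy5 and Mgll (8.46% of all genes), and below for 0 (7.71%). The median log2 difference was 0.21 against -0.11 for all genes, and without CPX 6 it was -0.28 against -0.02. The 3 comparisons share libraries pairwise, so their values stand side by side and are not independent of each other.

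**Figure D2:**
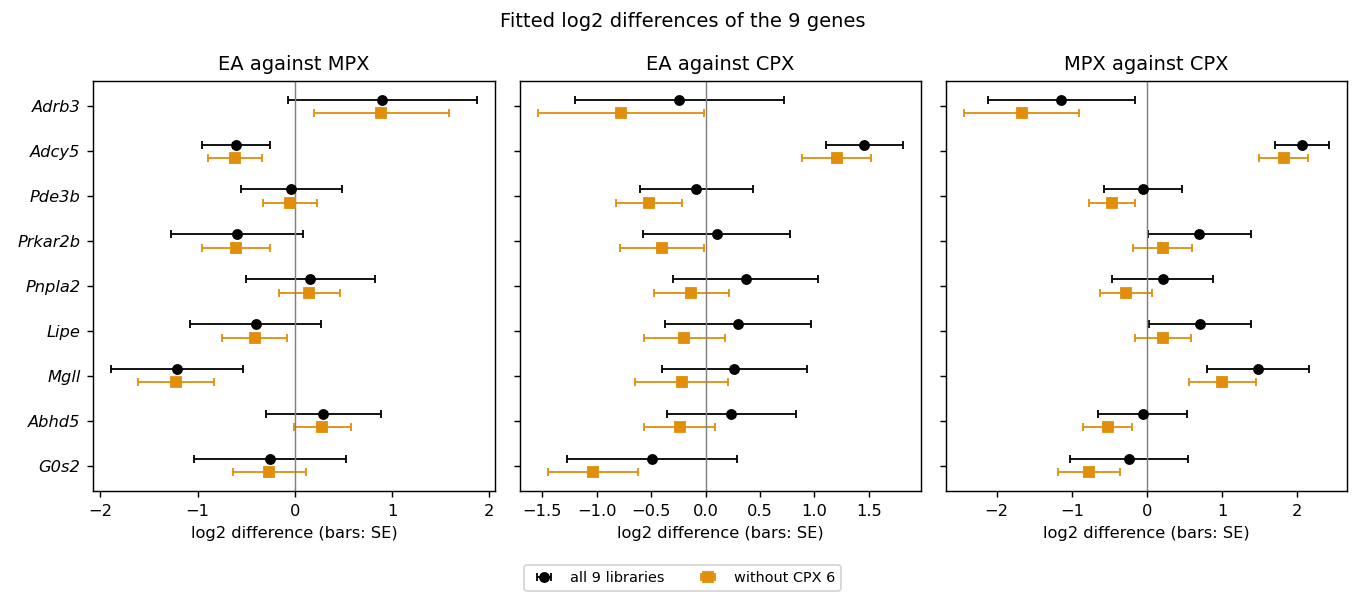
Fitted log2 differences of the 9 genes in each comparison (edgeR; points are estimates and bars are SE), from all 9 libraries and without CPX 6. Adcy5 has the largest positive difference in both comparisons with CPX, 1.46 for EA and 2.06 for MPX, and every gene shifts to a lower value against CPX when CPX 6 is left out.

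Adrb3 encodes the beta-adrenergic receptor most characteristic of mouse fat cells. It measured 379, 423 and 492 CPM in EA, 335, 32.7 and 326 CPM in MPX, against 876, 61.4 and 589 CPM in CPX. The EA libraries were close together, while MPX 5 and CPX 6 were each far below the rest of their group. Its log2 difference was 0.90 (SE 0.97) for EA against MPX, with an edgeR adjusted p of 0.799. The difference was -0.24 (SE 0.96) for EA against CPX and -1.14 (SE 0.98) for MPX against CPX, neither past the threshold (edgeR adjusted p = 0.997 and 0.573). MPX 5 did not stand apart in Adcy5, Pde3b or Lipe. It was the lowest MPX library for G0s2 (252 CPM) and the highest of all libraries for Mgll (2812 CPM). Slc1a3 and Fam13a, the listed genes most like Adrb3, were also lowest in MPX 5 among the MPX libraries. They were picked for their correlation with Adrb3 over these same libraries, so this likeness follows in part from the choice. Slc1a3 measured 78.2 CPM there, against 280 and 171 CPM, and Fam13a 55.1 CPM, against 121 and 154 CPM. Without MPX 5 the EA against MPX difference of Adrb3 was 0.35 (SE 0.87). Adrb3 shares 839 of its 3376 exonic bases with the opposite-strand gene Gm45470, and without a known strand setting their reads cannot be told apart.

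Adcy5 encodes a membrane adenylyl cyclase that turns ATP into cAMP. It measured 262, 309 and 177 CPM in EA, 397, 384 and 357 CPM in MPX, against 78.9, 57.3 and 136 CPM in CPX. All 3 groups were separate, with MPX highest and CPX lowest, an order without overlap that 9 of the 3958 genes showed (0.227%). Genes with the 3 groups separate in another order were not counted. The small share is therefore no measure of how unusual Adcy5 is. Means were 249 ± 66.6 CPM in EA, 379 ± 20.3 CPM in MPX and 90.7 ± 40.6 CPM in CPX (SD, n = 3 each).

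The log2 difference of Adcy5 was 1.46 (SE 0.35) for EA against CPX, rank 4 of 3958 by p, yet its edgeR adjusted p was 0.997; DESeq2 gave an adjusted p of 0.0269. For MPX against CPX it was 2.06 (SE 0.36), again rank 4, with an adjusted p of 0.362 in edgeR and 1.82e-06 in DESeq2. For EA against MPX it was -0.61 (SE 0.35), with an adjusted p of 0.775 in edgeR and 0.518 in DESeq2. With only EA and MPX fitted it was -0.64 (SE 0.22, edgeR adjusted p = 0.112). When CPX 8 was left out, edgeR gave MPX against CPX an adjusted p of 0.0360 for Adcy5, among 168 genes called (4.24%). It was 0.186 in edgeR without CPX 4 and 0.166 without CPX 6. No fit that left out an EA or MPX library brought it under the threshold. Leaving out each library in turn kept the difference between 1.21 and 1.87 for EA against CPX and between 1.82 and 2.51 for MPX against CPX. The edgeR fit scaled to the 18 adipocyte markers gave smaller differences with larger errors, 0.92 (SE 0.78, adjusted p = 0.579) for EA against CPX and 1.12 (SE 0.78, adjusted p = 0.298) for MPX against CPX, and in the second of these Adcy5 ranked 2368 by p. With CPX 6 also left out, the scaled differences were 1.83 (SE 0.46) and 2.03 (SE 0.47), with edgeR adjusted p of 0.145 and 0.407. With a replicate block the differences were 0.39 (SE 0.27) for EA against CPX and 0.77 (SE 0.33) for MPX against CPX. The first rests on a single pair of same-numbered libraries, EA 8 and CPX 8. MPX and CPX share no number, so the second is linked only through EA libraries. The block leaves few degrees of freedom for these SE values.

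Pde3b encodes the phosphodiesterase that insulin activates in fat cells to break down cAMP. It measured 651, 591 and 371 CPM in EA, 529, 556 and 569 CPM in MPX, against 915, 184 and 612 CPM in CPX. The MPX values lay within the EA range, and CPX spanned both. Its log2 differences were -0.04 (SE 0.52) for EA against MPX, -0.08 (SE 0.52) for EA against CPX and -0.05 (SE 0.52) for MPX against CPX, and the sign of each turned under another scaling to the column sums, where they were 0.06, 0.22 and 0.16.

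Prkar2b encodes a regulatory subunit of protein kinase A that is abundant in fat. It measured 1056, 963 and 474 CPM in EA, 989, 1327 and 1449.7 CPM in MPX, against 1258, 150.1 and 912 CPM in CPX. The groups overlapped, EA 8 and CPX 6 being the lowest. The log2 difference was -0.60 (SE 0.68) for EA against MPX and 0.70 (SE 0.68) for MPX against CPX, with edgeR adjusted p of 0.801 and 0.621. For EA against CPX it was 0.10 (SE 0.68).

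Pnpla2 encodes adipose triglyceride lipase, which takes the first fatty acid off stored triglyceride. It measured 4125, 3487 and 2366 CPM in EA, 3455, 2658 and 2809 CPM in MPX, against 4351, 502 and 2872 CPM in CPX. The groups overlapped, with CPX 6 far below every other library. The log2 difference was 0.16 (SE 0.67) for EA against MPX, 0.37 (SE 0.67) for EA against CPX and 0.21 (SE 0.67) for MPX against CPX. Without CPX 6 the differences were 0.15, -0.13 and -0.28 in the same order of comparisons.

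Lipe encodes hormone-sensitive lipase, which cleaves diglyceride and is a direct substrate of protein kinase A. It measured 2048, 2115 and 1026 CPM in EA, 2153, 2228 and 2481 CPM in MPX, against 2355, 277 and 1580.0 CPM in CPX. EA lay below MPX without overlap, but EA 7 was just under MPX 2. The log2 difference was -0.40 (SE 0.67) for EA against MPX, with an edgeR adjusted p of 0.852. With only EA and MPX fitted it was -0.44 (SE 0.32, edgeR adjusted p = 0.362). It was 0.30 (SE 0.67) for EA against CPX and 0.70 (SE 0.67) for MPX against CPX (edgeR adjusted p = 0.997 and 0.616). Lipe shares 918 of 5886 exonic bases with the opposite-strand gene 4732471J01Rik.

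Mgll encodes monoglyceride lipase, which releases the last fatty acid and glycerol. It measured 1365, 1277 and 504 CPM in EA, 1991, 2812 and 2474 CPM in MPX, against 1144, 199 and 1275 CPM in CPX. All MPX libraries were above all libraries of EA and of CPX, while EA and CPX overlapped. The summed level of 7 endothelial markers had the same order, at 1143 to 1555 CPM in EA and 1600.2 to 2430 CPM in MPX, against 1005 to 1525 CPM in CPX, so it moved with the high MPX levels of Mgll and Adcy5; its part in them was not tested. The log2 difference was -1.21 (SE 0.67) for EA against MPX, with an edgeR adjusted p of 0.775. Without CPX 6 it was -1.22 (SE 0.39, edgeR adjusted p = 0.172). With only EA and MPX fitted it was -1.24 (SE 0.41, edgeR adjusted p = 0.103). For MPX against CPX it was 1.47 (SE 0.68), with an edgeR adjusted p of 0.396, and for EA against CPX it was 0.26 (SE 0.67). The B cell markers, which were high in EA and low in MPX, and the adipocyte markers, which were lowest in EA 8 among these 6 libraries, moved with the EA against MPX difference of Lipe and Mgll; their part in it was not tested. Mgll shares 167 of 5077 exonic bases with the opposite-strand gene Gm26588.

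Abhd5 encodes the protein that activates adipose triglyceride lipase once perilipin lets it go. It measured 248, 157 and 156 CPM in EA, 139.7, 144 and 173 CPM in MPX, against 289, 38.2 and 148 CPM in CPX. The groups overlapped. The log2 differences were 0.30 (SE 0.59) for EA against MPX, 0.24 (SE 0.59) for EA against CPX and -0.06 (SE 0.59) for MPX against CPX. It shares 950 of 5956 exonic bases with the opposite-strand gene A730085K08Rik.

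G0s2 encodes a small protein that inhibits adipose triglyceride lipase. It measured 295, 300.3 and 259 CPM in EA, 398, 252 and 369 CPM in MPX, against 857, 47.3 and 299 CPM in CPX. EA was tight and lay inside the range of MPX, and CPX 4 was the highest library of all. The log2 differences were -0.25 (SE 0.78) for EA against MPX, -0.49 (SE 0.78) for EA against CPX and -0.24 (SE 0.78) for MPX against CPX.

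Since adipocyte marker levels differed so much between libraries, each gene was also expressed relative to the mean log2 CPM of the 18 adipocyte markers. On this scale Pnpla2 was 0.91, 1.05 and 0.96 in EA, 0.74, 0.27 and 0.23 in MPX, and 0.27, 0.42 and 0.41 in CPX (log2). All EA libraries were above all others, CPX 6 included, as for 11 of the 3958 genes (0.278%). The marker mean was 8.55 in CPX 6 and between 10.24 and 11.82 in the other libraries (log2 CPM). Subtracting it raises CPX 6 for any gene that did not fall with the markers, so few genes could lie above CPX. The small share is therefore no measure of how unusual Pnpla2 is. The edgeR fit scaled to the markers gave Pnpla2 a log2 difference of 0.54 (SE 0.59, adjusted p = 0.959) for EA against MPX and 0.61 (SE 0.59, adjusted p = 0.579) for EA against CPX, neither past the threshold. That scaling moved the median of all genes to 0.48 for EA against MPX, -0.92 for EA against CPX and -1.36 for MPX against CPX, so the Pnpla2 difference from MPX was close to that of the median gene.

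Relative to the adipocyte markers, Lipe was -0.10, 0.33 and -0.24 in EA, 0.06, 0.02 and 0.05 in MPX, and -0.62, -0.43 and -0.46 in CPX. CPX thus lay below both other groups without overlap. Mgll was -0.68, -0.39 and -1.27 in EA, -0.06, 0.35 and 0.05 in MPX, and -1.66, -0.91 and -0.76 in CPX, so that MPX stayed above both. Adcy5 was -3.06, -2.44 and -2.77 in EA, -2.38, -2.52 and -2.74 in MPX, and -5.52, -2.71 and -3.99 in CPX. On this scale CPX 6 was among the EA and MPX libraries and only CPX 4 and CPX 8 were below them.

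Counted over the set on the marker scale, EA was above MPX without overlap for 4 members, Adrb3, Pde3b, Pnpla2 and Abhd5 (27.2% of all genes), and below for 1, Mgll (3.03%). EA was above CPX for 2, Pnpla2 and Lipe (0.884%), and below for 0 (57 of the 3958 genes). MPX was above CPX for 3, Prkar2b, Lipe and Mgll (1.84%), and below for 1, Adrb3 (4.55%). The small shares above CPX follow in part from the raised CPX 6 values on this scale. They do not show that these members are unusual. With CPX 6 also left out of the scaled fit, edgeR called 0 of the 9 in each comparison, against 0.657% of all genes for EA against MPX, 0.354% for EA against CPX and 0.101% for MPX against CPX.

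**Figure D3:**
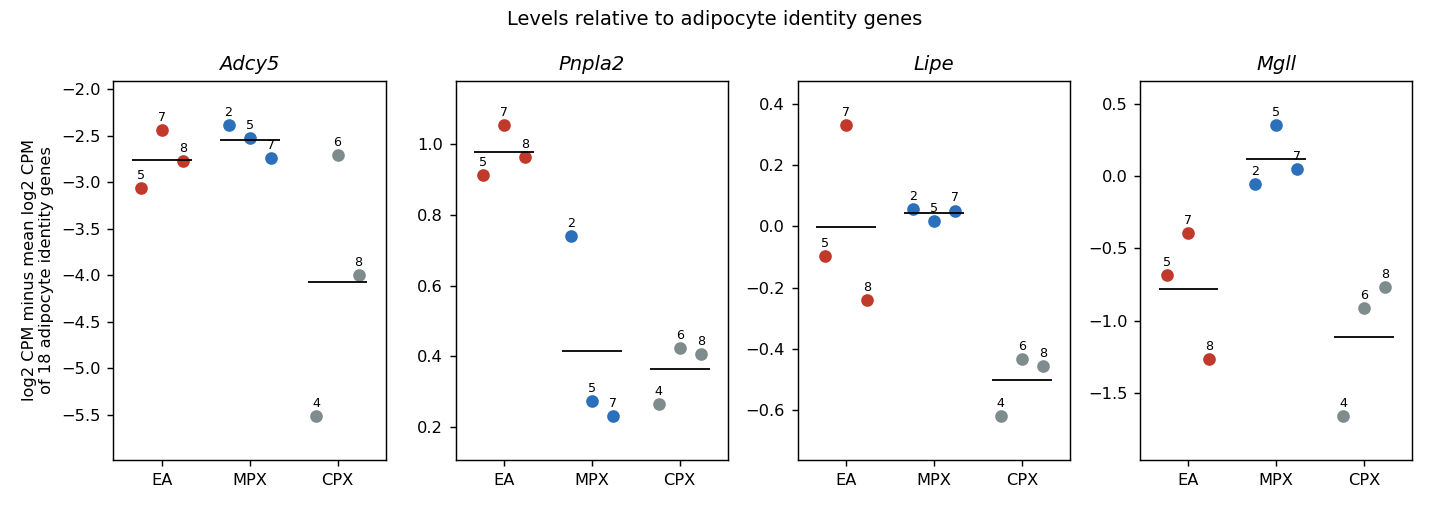
Adcy5, Pnpla2, Lipe and Mgll in each library as log2 CPM minus the mean log2 CPM of 18 adipocyte markers; points are libraries with their numbers and bars are group means (n = 3 each). Pnpla2 is 0.91 to 1.05 in EA and at most 0.74 elsewhere, Lipe is lowest in CPX, Mgll is highest in MPX, and Adcy5 of CPX 6 lies within the range of EA.

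Ratios of members within a library do not depend on its scaling. How often ratios of other genes keep the groups apart was not computed. The exact permutation test over samples cannot give a two-sided p below 0.1 with 3 libraries against 3, and after Benjamini-Hochberg adjustment over the 21 ratios and comparisons the smallest value was 0.233. The log2 ratio of Mgll to Pnpla2, the last lipase over the first, averaged -1.76 ± 0.42 in EA, -0.30 ± 0.45 in MPX and -1.48 ± 0.40 in CPX (SD, n = 3 each). MPX did not overlap either of the others (differences of -1.46 for EA against MPX and 1.18 for MPX against CPX, exact permutation p = 0.1 each). The log2 ratio of Lipe to Pnpla2 averaged -0.98 ± 0.24 in EA, -0.37 ± 0.27 in MPX and -0.87 ± 0.02 in CPX, with MPX again apart from both (exact permutation p = 0.1 each). In CPX this ratio was nearly the same in all 3 libraries although their levels of both genes differed widely.

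Pde3b over Adcy5, the cAMP-degrading over the cAMP-making enzyme, averaged 1.10 ± 0.19 in EA, 0.54 ± 0.13 in MPX and 2.46 ± 0.96 in CPX on the log2 scale (SD, n = 3 each). The 3 groups were apart in every comparison, by 0.56 for EA against MPX, -1.36 for EA against CPX and -1.92 for MPX against CPX (exact permutation p = 0.1 each). The CPM of Adcy5 by itself also separated the 3 groups, so this ratio is not independent of that result. Adrb3 over Adcy5 averaged 0.82 ± 0.57 in EA, -1.31 ± 1.94 in MPX and 1.896 ± 1.696 in CPX. MPX lay below both other groups, with MPX 5 far down, and EA overlapped CPX. Prkar2b over Adcy5 overlapped in all comparisons, as did the ratios of the cofactors to their lipase: the log2 ratio of G0s2 to Pnpla2 averaged -3.51 ± 0.31 in EA, -3.15 ± 0.24 in MPX and -3.004 ± 0.58 in CPX. That of Abhd5 to Pnpla2 averaged -4.15 ± 0.29 in EA, -4.28 ± 0.31 in MPX and -3.97 ± 0.29 in CPX.

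**Figure D4:**
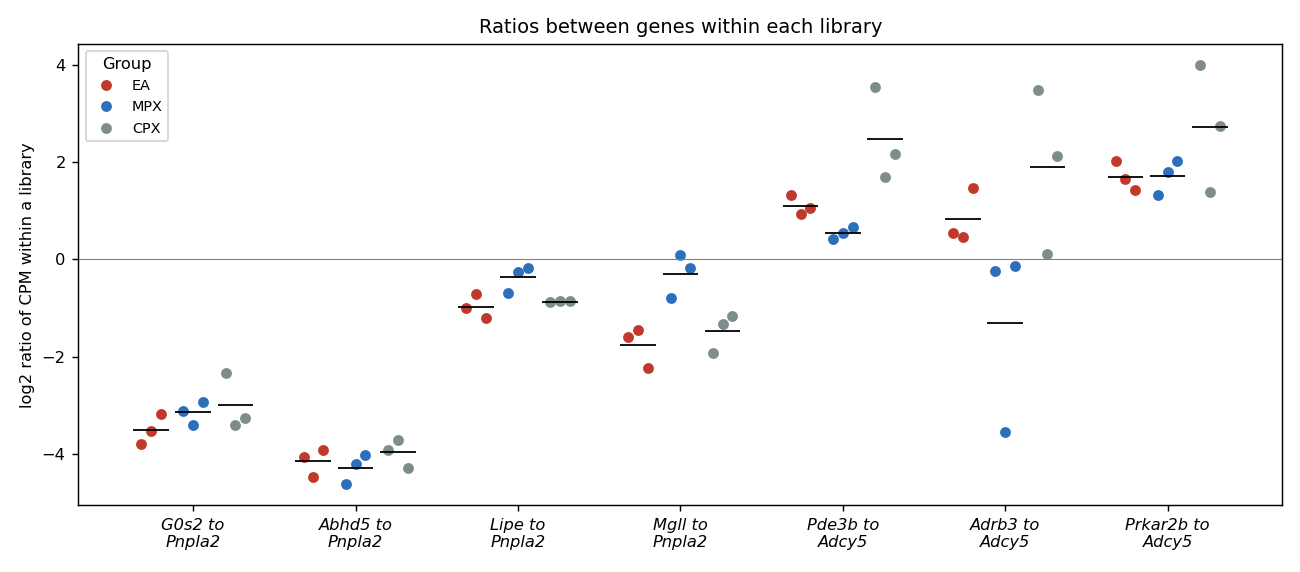
Log2 ratio of CPM within each library for 7 pairs of genes; points are libraries and bars are group means (n = 3 each). Mgll to Pnpla2 and Lipe to Pnpla2 are highest in MPX, Pde3b to Adcy5 separates all 3 groups with CPX highest, and the ratios of G0s2 and Abhd5 to Pnpla2 overlap between groups.

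Across the 9 libraries the members did not all run together. Lipe and Prkar2b had a Pearson correlation of log2 CPM of 0.99, Mgll and Prkar2b of 0.95, and Lipe and Mgll of 0.92; without CPX 6 these were 0.95, 0.86 and 0.82. All libraries share the scaling and CPX 6 is low for each of these genes, so the values are descriptions with no test. Adcy5 and Pnpla2 had a correlation of 0.55, and without CPX 6 it was -0.28. For Adcy5 and Abhd5 it was 0.39, and without CPX 6 it was -0.57.

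The correlations given next include CPX 6, the lowest library for every member but Adrb3, and were not computed without it. Of the listed genes outside the set, those most like each member over the 9 libraries were named by the same correlation. They were Sh3tc1 (0.95) and Calcoco1 (0.95) for Adcy5, and Slc1a3 (0.93) and Fam13a (0.91) for Adrb3. For Lipe they were Plin1, which encodes the droplet coat protein perilipin 1 (0.99), and Fitm2, an endoplasmic reticulum protein of lipid storage (0.99). For Pnpla2 they were Por (0.99) and Gys1 (0.98), and for Mgll they were Wwtr1 (0.99) and Mxd4 (0.99). For Prkar2b they were Ywhag (1.00) and Cdk16 (0.99), for Pde3b Gpt2 and Ldhb (0.99 each), for Abhd5 Cpt2 and Car5b (0.97 each), and for G0s2 Eif4ebp1 and Vegfb (0.99 each). Sh3tc1 measured 84.4, 90.1 and 78.4 CPM in EA, 105, 133 and 95.8 CPM in MPX, against 54.9, 50.7 and 74.3 CPM in CPX. That is the same order of groups as Adcy5, which follows from picking it by its correlation with Adcy5 over these libraries.

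Of the other genes of the pathway, 68 were listed: 15 receptors and G protein genes, 2 cyclases, 1 phosphodiesterase, 15 kinase subunits, anchors and phosphatases, 18 droplet proteins and lipases, 10 genes of insulin signalling and 7 cAMP response genes. None passed the edgeR threshold in any comparison, also without CPX 6. Among those DESeq2 called were Fos, lower in EA against MPX, and Gnas, Akap12 and Fos, higher in MPX against CPX; it called 0 in EA against CPX. At an unadjusted edgeR p under 0.05, 1 was higher and 1 lower in EA against MPX (5.1% of all listed genes passed), 1 higher and 1 lower in EA against CPX (2.96%), and 5 higher and 2 lower in MPX against CPX (13.2%). The median log2 difference of the 18 droplet proteins and lipases was -0.50 for EA against MPX, 0.18 for EA against CPX and 0.69 for MPX against CPX. Of the 18, 4, 11 and 14 were positive, and all genes had medians of 0.01, -0.09 and -0.11. Plin1, Cidec, Fabp4, Aqp7, Lpl and Acsl1 of this list are also among the adipocyte markers, so these medians are not independent of the marker level. They were not computed without CPX 6, the library with the lowest marker sum.

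Among receptors and G proteins, Gnas, the stimulatory G protein subunit that links receptor to cyclase, measured 117, 134 and 95.7 CPM in EA, 123, 147 and 134 CPM in MPX, against 97.7, 48.3 and 49.4 CPM in CPX. Its log2 difference for EA against CPX was 0.82 (SE 0.30), and for MPX against CPX 1.05 (SE 0.30), with edgeR adjusted p of 0.997 and 0.362. Like Adcy5 it was lowest in CPX, though CPX 4 reached the lowest EA library. Tshr, the thyrotropin receptor, which also signals through cAMP, measured 88.9, 121.9 and 65.1 CPM in EA, against 209, 224 and 278 CPM in MPX, and its log2 difference was -1.36 (SE 0.62, adjusted p = 0.775 in edgeR). In CPX it measured 227, 30.9 and 209.6 CPM. Grk2, a kinase that desensitises adrenergic receptors, measured 177, 233 and 327 CPM in EA and 136, 111 and 109.9 CPM in MPX, with a log2 difference of 1.05 (SE 0.59) and an edgeR adjusted p of 0.775, and CPX 6 held the highest level of any library, 581 CPM. The B cell markers moved with Grk2, high in the EA libraries and highest in CPX 6; their part in its difference was not tested.

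Hcar1, the lactate receptor that restrains lipolysis, and Npr1, a natriuretic peptide receptor, were 1.13 (SE 0.63) and 0.81 (SE 0.39) apart on the log2 scale for EA against CPX, neither past the edgeR threshold. Ptger3, a prostaglandin receptor coupled to inhibition of cyclase, had a difference of -1.20 (SE 0.73) there, and its CPX libraries overlapped EA through CPX 6. Gnai3, an inhibitory G protein subunit, measured 140.5, 117.7 and 133.7 CPM in MPX, against 162, 250.3 and 152 CPM in CPX, and its log2 difference was -0.53 (SE 0.23) with an edgeR adjusted p of 0.375.

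Among anchors and phosphatases, Akap12, a scaffold that binds protein kinase A, averaged 259 ± 30.8 CPM in MPX, above 130.01 ± 39.4 CPM in EA and 92.4 ± 65.2 CPM in CPX, without overlap with either (SD, n = 3 each), as for the endothelial markers. Its log2 difference was -0.99 (SE 0.49, edgeR adjusted p = 0.775) for EA against MPX and 1.49 (SE 0.50, edgeR adjusted p = 0.362) for MPX against CPX. Akap8, another such scaffold, measured 105, 122 and 137 CPM in EA, against 84.6, 87.5 and 75.3 CPM in MPX, and its log2 difference was 0.56 (SE 0.35). The catalytic phosphatase subunits Ppp2ca and Ppp1cb had log2 differences of -0.50 (SE 0.22) and -0.42 (SE 0.20) for EA against CPX, both without overlap of the groups.

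In the insulin arm, Foxo1, a transcription factor that insulin inhibits, had a difference of -0.53 (SE 0.24) for MPX against CPX, where the groups overlapped. Among cAMP response genes, Fos measured 13.2, 17.2 and 30.0 CPM in EA, 351, 22.6 and 181 CPM in MPX, against 9.94, 22.5 and 41.0 CPM in CPX. MPX 2 and MPX 7 were high, whereas MPX 5 was within the range of the other groups. Its log2 difference was -3.20 (SE 0.93, edgeR adjusted p = 0.775) for EA against MPX and 2.91 (SE 0.92, edgeR adjusted p = 0.362) for MPX against CPX.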

How the data were processed

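RNA of 9 adipose tissue libraries was analysed from the authors' deposited table of raw counts per gene, whose gene names, positions and lengths stand beside the counts per the file headers. The submitters' processing notes name HISAT2 2.0.5 and the build mm10. How reads were counted, with which annotation and strand setting, is not given in the sources used here. The table lists 3958 genes, the least abundant with 8471 counts over all libraries; genes below that level were not analysed here. Names that a spreadsheet had turned into dates were restored from the gene ID.

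All 9 libraries entered 1 quasi-likelihood fit in edgeR 4.0.16 (R 4.3.3; robust, TMM factors between 0.753 and 1.10), with p-values adjusted after Benjamini-Hochberg over all 3958 genes of each comparison and a threshold of 0.05. The biological coefficient of variation was 40.2%. SE values were derived as the fitted difference over the root of its F statistic. DESeq2 1.42.0, limma 3.58.1 (voom), other scalings, filters, the comparison of 2 groups alone, a replicate block and leaving out each library were alternatives, and a marker scaling without CPX 6 was added after seeing the data. CPM was computed over the listed genes, log2 CPM with a prior count of 2. Exact permutation tests used SciPy 1.17.1. The edgeR fit of all 9 libraries was tested on simulated counts with no library set apart like CPX 6. That test does not cover such a library.

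The 9 genes and the lists of pathway and marker genes were chosen with earlier results of these data known. Named were all 9 genes, in each comparison the 3 higher and 3 lower pathway genes with the smallest p since none passed (1 pathway gene is not reported here), and the 2 genes most correlated with each member. Coordinates and overlapping exons come from GENCODE M21, in which all 9 genes had the deposited positions, and promoter windows from RefSeq. Library pairs within a group differed by a chi-square per degree of freedom of at least 71.5, so none was counted as a repeat.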

Additional observations from a re-analysis of the deposited data

How the results depend on the processing

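The table holds only abundant genes and 3 libraries a group, which limits precision; filters removed no gene and therefore show nothing about stability. DESeq2 called 49 genes for EA against MPX, 5 for EA against CPX and 201 for MPX against CPX, with 1 member (Adcy5) in each comparison with CPX. Fitting only the 2 groups gave 84 genes for EA against MPX. Marker scaling without CPX 6 gave 26, 14 and 4 genes. Leaving out 1 library gave 0 to 23, 0 to 12 and 0 to 168 genes, and 0 to 1 members for MPX against CPX; the cause was not tested. The sign of Adcy5 and Mgll differences between MPX and the other groups held in all but the block fit of Mgll.

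Deviations of same-numbered libraries from their group means had correlations of 0.02 (EA 5 and MPX 5), 0.13 (EA 7 and MPX 7) and -0.51 (EA 8 and CPX 8). Libraries with different numbers reached 0.71 (EA 8 and CPX 6) and -0.67 (EA 5 and CPX 6). These values therefore cannot tell whether same-numbered libraries share more than a number. The replicate block gave 6 genes for EA against MPX and 0 members in any comparison, with log2 differences of 0.14 for Pde3b (EA against MPX). With the block, EA against CPX rests on 1 same-numbered pair, EA 8 and CPX 8. MPX and CPX share no number, so their comparison is linked only through EA libraries. EA against CPX gave -0.94 for Prkar2b, -0.28 for Pnpla2, -0.62 for Lipe and -1.34 for Mgll. MPX against CPX gave -0.48, -0.75, -0.45 and -0.34 for the same genes.

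Signs also turned in differences that passed no threshold. Scaling to column sums gave Pde3b 0.058, 0.22 and 0.16 in the 3 comparisons, Adrb3 0.10 (EA against CPX), Abhd5 0.18 and G0s2 0.050 (MPX against CPX). Voom gave, for EA against CPX, Adrb3 0.38, Pde3b 0.11 and G0s2 0.23, and for MPX against CPX, Pde3b 0.19, Abhd5 0.35 and G0s2 0.46. Marker scaling gave Pde3b 0.36 and G0s2 0.19 (EA against MPX, with or without CPX 6), and for EA against CPX Adrb3 0.29 and G0s2 0.074; without CPX 6, Adrb3 was 0.11 and Pde3b 0.25.

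Leaving out 1 library turned signs within these ranges. For EA against MPX they were -0.20 to 0.17 for Pde3b, -0.023 to 0.36 for Pnpla2, -0.039 to 0.29 for the ratio of Abhd5 to Pnpla2 and -0.22 to 0.14 for that of Prkar2b to Adcy5. For EA against CPX they were -0.78 to 0.40 for Adrb3, -0.52 to 0.43 for Pde3b, -0.40 to 0.64 for Prkar2b, -0.13 to 0.98 for Pnpla2, -0.20 to 0.89 for Lipe, -0.22 to 0.63 for Mgll, -0.24 to 1.01 for Abhd5, -1.03 to 0.71 for G0s2 and -0.24 to 0.0023 for Lipe to Pnpla2. For MPX against CPX they were -0.47 to 0.50 for Pde3b, -0.28 to 0.84 for Pnpla2, -0.52 to 0.74 for Abhd5, -0.77 to 1.00 for G0s2 and -0.34 to 0.19 for G0s2 to Pnpla2.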
